A study of Homo sapiens with 4 samples.

Results

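The aminoacyl-tRNA synthetase genes comprise 35 of the 12183 named loci that were compared and of the 26468 loci that the tables list. They were found by symbol, splitting the joined names of loci that cover several genes, and were divided by name alone into 20 cytosolic enzymes and 15 mitochondrial enzymes, whose names end in 2. All 35 were present and had a value of at least 1 FPKM (fragments per kilobase of transcript, corrected for the mapped fragments, so that levels of different genes are on a per-length scale) in every library. KARS and GARS, counted here as cytosolic, encode both the cytosolic and the mitochondrial form of their enzyme. EPRS carries the glutamyl and the prolyl enzyme in one protein, and FARSA and FARSB are the subunits of the cytosolic phenylalanyl enzyme. AARS, HARS, HARS2 and VARS2 lie in loci joined with a neighbour (EXOSC6, DND1, ZMAT2 and GTF2H4), so reads of that neighbour can enter their values.

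The study measured poly(A) RNA in IMR90, a human lung fibroblast strain that stops dividing after limited passages, and all cells were at passage 16. There was 1 library in each of 4 groups. Growing cells carried the empty retroviral vector pBabe and are labelled day 13. Cells in oncogene-induced senescence (OIS) carried a retroviral H-RasV12 fused to the estrogen receptor (ER:H-RasV12), switched on by 10 nM tamoxifen for 8 days. The last 2 groups were infected with a retrovirus for H3.3cs1, a cleaved form of histone H3.3 with a Flag tag, and were taken at day 3 (early) and day 13 (late). A day 3 library with the empty vector was not analysed here, so H3.3cs1, recent infection and days in culture cannot be told apart at day 3. The OIS library likewise differs from growing cells in vector and tamoxifen as well as in Ras. With 1 library per group no difference has a replicate check, so no test, SD or p-value is given. Differences are on the scale of log2(FPKM + 1), and "rose" or "fell" is used only for a difference of at least 2-fold, with 1.5-fold as a second limit.

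Each aminoacyl-tRNA synthetase joins an amino acid to the tRNAs that read its codons, and so supplies the ribosome with charged tRNA. The cytosol and the mitochondrial matrix have separate sets of enzymes, nearly all encoded by different nuclear genes. Several cytosolic enzymes are held in the multi-synthetase complex, on the scaffold proteins AIMP1, AIMP2 and EEF1E1 (AIMP3). Many cytosolic synthetase genes are known targets of ATF4, the transcription factor that is translated when amino acids run short or the endoplasmic reticulum is under stress, and that acts through sites related to TTGCATCA (the C/EBP-ATF response element). WARS, the tryptophanyl enzyme, is induced by interferon gamma. How synthetase levels behave in senescent fibroblasts is the question that these libraries allow to be described.

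Promoter stretches with the letters of the ATF4 type are shown first, because they were found in cytosolic and in no mitochondrial genes of the family. Promoter windows from RefSeq on GRCh38.p14, from 250 bases before to 50 bases after each gene start, matched 29 of the 35 genes. No window was held for DARS, LARS, VARS, YARS, AARS2 and VARS2. The 8 letters TTGCATCA, searched on both strands, occurred in the windows of 6 of 16 cytosolic enzymes (37.5%) and in 0 of 13 mitochondrial ones. Of all 27305 genes with a window, 1.08% held them. Each stretch below is written on the strand of its gene, 5′ to 3′, with the matched letters in capitals. In NARS they read TGATGCAA, the same letters on the other strand.
AARS (alanyl), chr16:70289664-70289715, minus strand: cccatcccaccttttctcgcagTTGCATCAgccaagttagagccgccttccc
CARS (cysteinyl), chr11:3057407-3057436, minus strand: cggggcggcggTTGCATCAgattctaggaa
IARS (isoleucyl), chr9:92293698-92293732, minus strand: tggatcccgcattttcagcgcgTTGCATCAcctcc
MARS (methionyl), chr12:57488053-57488082, plus strand: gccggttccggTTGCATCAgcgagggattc
NARS (asparaginyl), chr18:57621804-57621833, minus strand: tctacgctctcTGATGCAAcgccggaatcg
TARS (threonyl), chr5:33440965-33440994, plus strand: gaTTGCATCAgctggtccagccgaggccaa

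With the third letter free (TTNCATCA, which includes TTGCATCA), the glycyl enzyme GARS joined the cytosolic set, giving 7 of 16, and YARS2 was the mitochondrial match, giving 1 of 13, against 4.46% of all genes. The E-box CACGTG was found in 1 of 16 cytosolic windows (IARS) and in 3 of 13 mitochondrial windows (CARS2, EARS2 and MARS2), against 8.77% of all genes. These 3 motifs were chosen after the expression values had been seen, and a match describes letters, not a bound site.

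Library quality touches these values in 3 ways. The depth of the libraries is not given by the files. The step size of very low values puts the OIS, day 3 and day 13 H3.3cs1 libraries at about 83.5%, 95.9% and 76.8% of the depth of the growing library, and these are rough figures, since only 4.53% to 20.5% of the low loci fell on the most common step. Unnamed loci held 47.4% to 57.9% of the summed FPKM, most in the day 3 library. All 9 fibroblast markers were above 1 FPKM in every library, with a summed level of 12999 in growing cells, 7254 in OIS, 8436 at day 3 and 13929 at day 13. None of the 5 epithelial or 5 leukocyte markers reached 1 FPKM, and 1 of 5 endothelial markers did in every library except day 13. HRAS stood at 47.4, 3153, 49.8 and 41.9 FPKM in growing, OIS, day 3 and day 13 cells. This fits the OIS label and does not tell the other libraries apart. The histone H3.3 genes were looked up as well, in the same order of libraries. H3F3A stood at 190, 236, 130 and 132 FPKM and H3F3B at 105, 90.5, 229 and 450 FPKM. Whether reads of the H3.3cs1 construct enter these values was not tested.

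The cytosolic synthetases are among the more abundant transcripts of these cells and the mitochondrial ones are not. In growing cells the 20 cytosolic genes ran from 22.3 FPKM (DARS, the aspartyl enzyme) to 114 FPKM (SARS, the seryl enzyme), with a median of 54.2. The 15 mitochondrial genes ran from 3.06 FPKM (MARS2) to 48.1 FPKM (HARS2), with a median of 7.02, close to the median of 9.03 FPKM over all compared loci. SARS was the highest member in every library, at 114, 101, 93.3 and 118 FPKM in growing, OIS, day 3 and day 13 cells. GARS followed at 99.9, 90.7, 74.5 and 86.0 FPKM. Of the mitochondrial enzymes HARS2, IARS2 and CARS2, for histidine, isoleucine and cysteine, were the 3 highest in each library and overlapped the lower part of the cytosolic range. Differences between neighbours in this order have no error to be judged by.

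**Figure D1:**
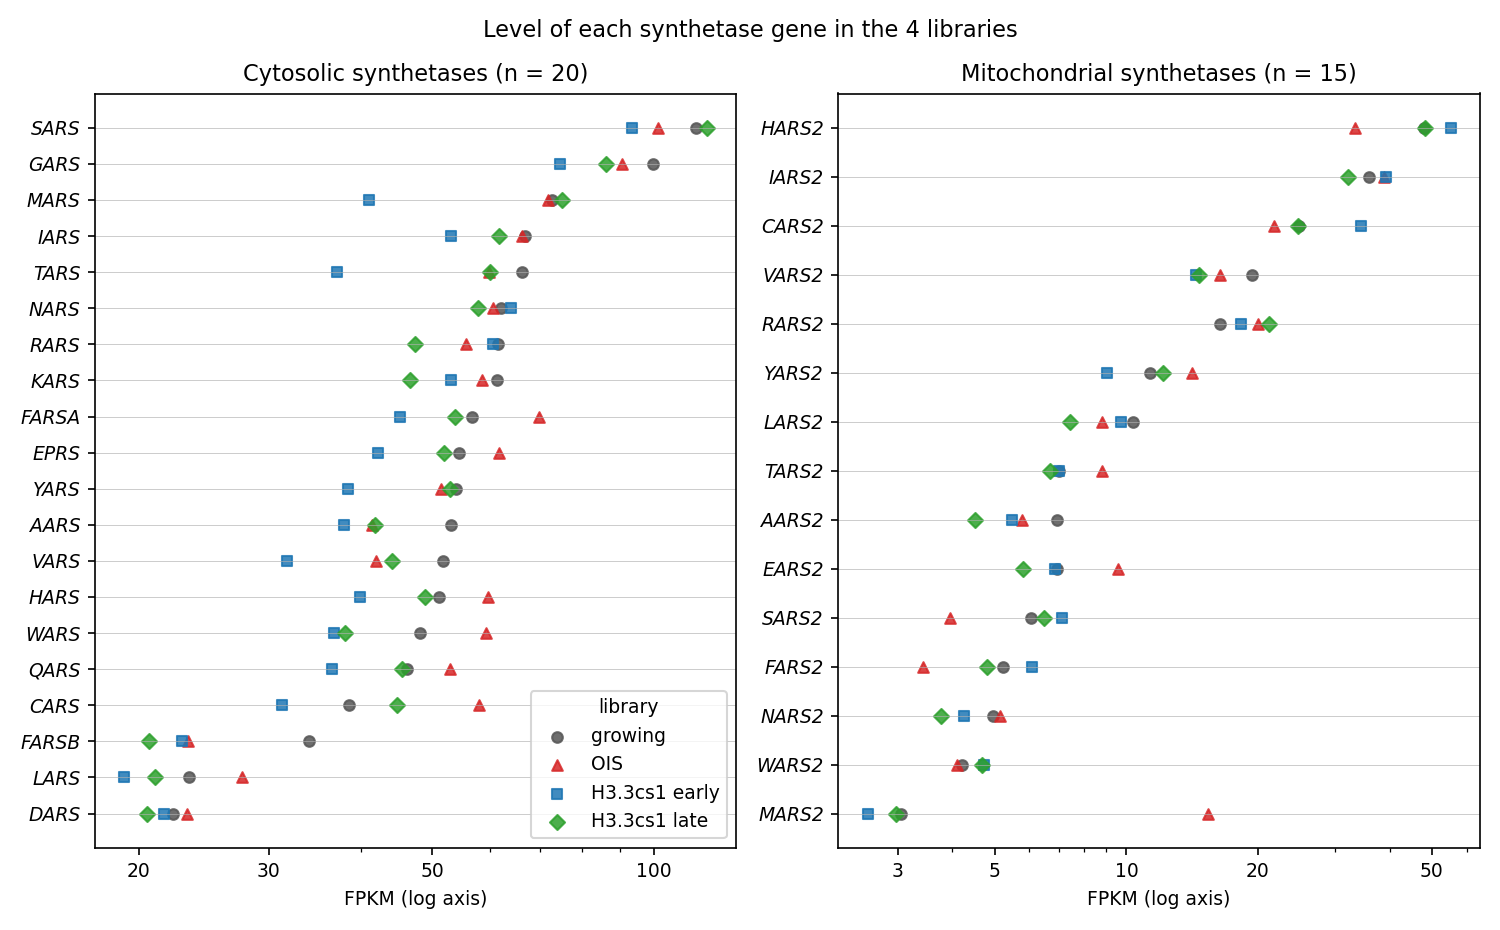
FPKM of each of the 35 synthetase genes on a log axis, 1 point per library, with the cytosolic and the mitochondrial enzymes grouped apart. MARS2 is the gene whose points spread most, with OIS at 15.4 FPKM and the other 3 libraries between 2.56 and 3.06 FPKM, while the NARS points lie almost on each other.

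Several members barely moved across the 4 libraries. NARS, the asparaginyl enzyme, stood at 62.0, 60.5, 63.9 and 57.7 FPKM in growing, OIS, day 3 and day 13 cells, with 1.11-fold between the highest and the lowest library. WARS2, for mitochondrial tryptophan, covered 1.12-fold, from 4.11 to 4.71 FPKM, though only as the sum of 2 lines that moved apart. DARS covered 1.13-fold, from 20.5 to 23.2 FPKM. The widest ranges belonged to MARS2 (4.61-fold), CARS (1.82-fold) and MARS (1.81-fold). The single difference of 2-fold or more in the family, in any of the 5 comparisons, was that of MARS2, for the OIS library against growing cells and against day 13. Over all compared loci, 17.3% passed 2-fold in either direction between OIS and growing cells, 5.37% between day 3 and growing cells, 8.99% between day 13 and growing cells, 8.87% between day 13 and day 3, and 19.7% between OIS and day 13.

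At 3 days after infection with H3.3cs1 the cytosolic enzymes lay lower almost throughout, by a modest amount, and the mitochondrial ones did not. The median cytosolic difference from growing cells was -0.34 on the log2 scale, with 19 of 20 genes below and NARS alone above (0.044). The mitochondrial median was 0.0014, with 8 genes above and 7 below. Over all compared loci the median was -0.025 and 52.7% were below. Day 3 was the lowest of the 4 libraries for 15 of 20 cytosolic and 3 of 15 mitochondrial genes, against 20% of all loci and 30.7% of the loci that reach 20 FPKM.

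MARS, TARS and VARS had the widest day 3 differences. MARS, which charges methionine for both starting and extending proteins, stood at 72.7 FPKM in growing, 71.7 in OIS, 41.0 at day 3 and 75.1 at day 13. The day 3 library is alone at the low end, by 0.81 on the log2 scale (1.75-fold) against growing cells. TARS, the threonyl enzyme, stood at 66.2, 59.8, 37.1 and 59.9 FPKM in the same order, again with day 3 apart, by 1.76-fold. VARS, the valyl enzyme, had 51.7, 41.9, 31.7 and 44.2 FPKM and was 1.61-fold lower at day 3. No cytosolic gene was 2-fold lower, where 3.96% of all loci were, and these 3 of 20 were at least 1.5-fold lower, where 10.5% of all loci were. Among the 4566 loci that reach 20 FPKM, about the range of the cytosolic enzymes, 15.1% were at least 1.5-fold lower, so the 3 genes are about the share of loci at that level. What stands out in the counts is the shared direction, and there too such abundant loci lean the same way, with a median of -0.13 and 65.5% below 0.

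**Figure D2:**
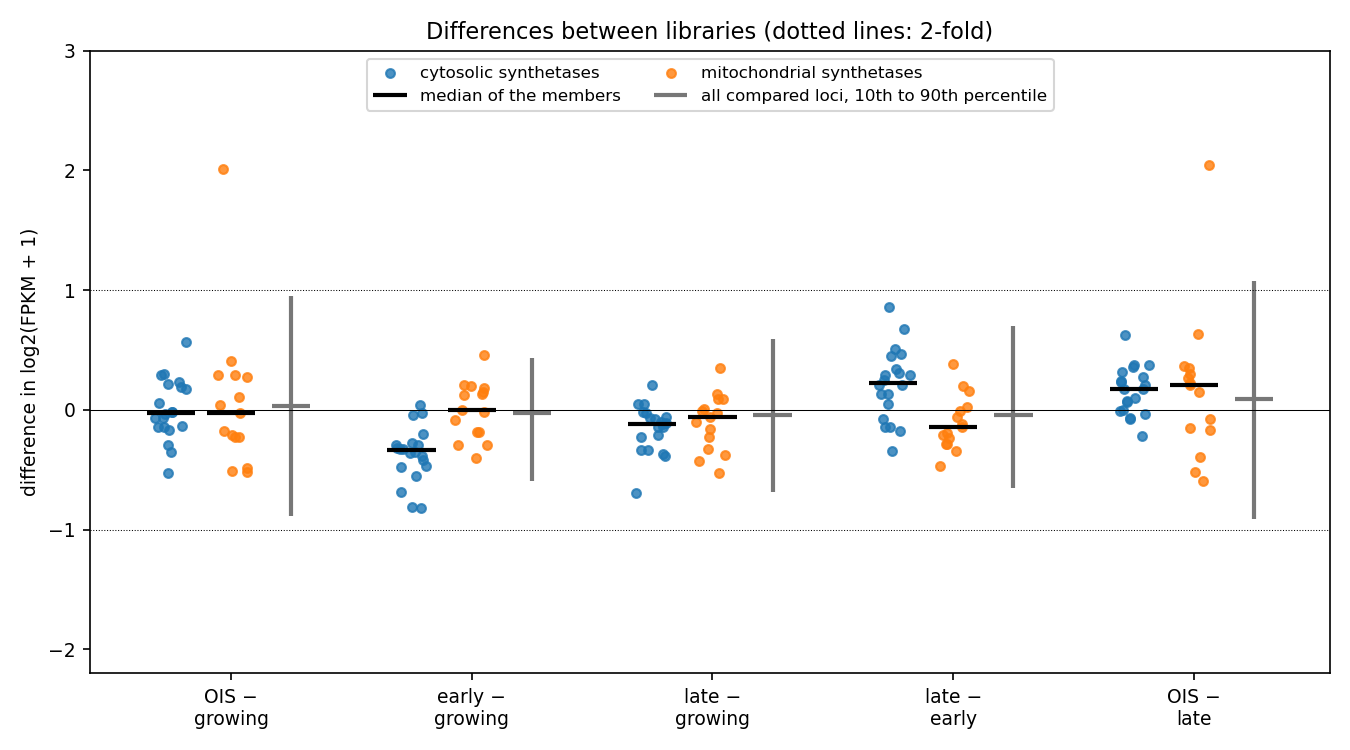
Differences in log2(FPKM + 1) of the cytosolic and mitochondrial synthetases, 1 point per gene and comparison, with the median of each set as a black bar and the median and the 10th to 90th percentile of all compared loci in grey. In the comparison of day 3 with growing cells the cytosolic points lie below 0 except for NARS, and MARS2 is the isolated high point in both comparisons that involve OIS.

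The lower cytosolic level at day 3 was spread over the structural and functional divisions of the family. The median difference was -0.30 for the 8 enzymes of the multi-synthetase complex, -0.34 for the 10 class I enzymes, all below growing cells, and -0.34 for the 10 class II enzymes. The 13 enzymes listed as amino acid response targets had a median of -0.38, with 12 below. The 6 genes shown above with TTGCATCA had a median of -0.40 and the 10 other cytosolic genes with a promoter window -0.34. Of the 6, 2 (MARS and TARS) were at least 1.5-fold lower, and of the 10 others 0 were, where 10.5% of all loci were. The asparaginyl gene NARS holds the letters and lay near 0, and VARS had no window. Whether the letters bear on the size of a difference was not tested. Other members of some size were FARSB (-0.55), YARS (-0.48) and AARS (-0.47). RARS, the arginyl enzyme (-0.024), and DARS (-0.039) lay beside NARS near 0.

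How far the cytosolic genes stood below growing cells depends on the scaling of the libraries. As deposited, the 20 genes summed to 1138 FPKM in growing cells, 1134 in OIS, 880 at day 3 and 1037 at day 13. As a share of all named FPKM the same sums were 0.259%, 0.219%, 0.240% and 0.238%, and day 3 was then no longer the lowest. With the libraries brought to the same named sum, the day 3 median became -0.088 with 16 of 20 below and 0 at least 1.5-fold lower, and the median over all loci became 0.19. With quantile normalization it was -0.18 with 17 below, and MARS and TARS were at least 1.5-fold lower. The gap between the cytosolic and the mitochondrial median was -0.34 as deposited, -0.32 with the same sum and -0.21 with quantile normalization, so the cytosolic enzymes lay below the mitochondrial ones under each.

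By day 13 the cytosolic enzymes were again near the level of growing cells. From day 3 to day 13 of H3.3cs1 the median cytosolic difference was 0.23, with 15 of 20 above, while all loci had a median of -0.044 with 45.8% above. Loci that reach 20 FPKM had a median of 0.080 with 43.1% below 0, so they lean the same way as the cytosolic genes. The mitochondrial median was -0.14, with 4 of 15 above. MARS (1.81-fold) and TARS (1.60-fold) were at least 1.5-fold higher at day 13 than at day 3, 2 of 20 where 12.9% of all loci were. With libraries of the same sum or quantile normalization MARS alone was. CARS (0.51), VARS (0.46) and YARS (0.45) came next, and RARS went the other way (-0.35), from 60.5 to 47.4 FPKM. Here the scaling decides the sign of the cytosolic median, which was -0.017 with libraries of the same sum, with 10 of 20 below 0, and 0.040 with quantile normalization. The cytosolic median exceeded the mitochondrial one by 0.37 as deposited, 0.33 with the same sum and 0.074 with quantile normalization.

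At day 13 H3.3cs1 cells differed little from growing cells in either set. The cytosolic median was -0.12, with 17 of 20 below, and the mitochondrial one -0.060, with 10 of 15 below, beside -0.040 and 53.8% for all loci. For the loci that reach 20 FPKM the median was -0.019, with 51.6% below, so here they do not share the lean of the cytosolic genes. FARSB, which encodes the beta subunit of the phenylalanyl enzyme, was the 1 member at least 1.5-fold lower, where 12.7% of all loci were. Its values were 34.0 FPKM in growing, 23.3 in OIS, 22.9 at day 3 and 20.6 at day 13. Growing cells stood alone at the high end for this gene. The partner subunit FARSA, at 56.7, 69.9, 45.2 and 53.8 FPKM, did not follow it. AARS2, the mitochondrial alanyl enzyme, was lower by 0.53 on the log2 scale, at 4.50 against 6.94 FPKM, and passed 1.5-fold with a pseudocount of 0.1.

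In OIS few members differed from growing cells by much, and which of them passed 1.5-fold depended on the processing. As deposited, 0 of the 20 cytosolic genes and 1 of the 15 mitochondrial genes, MARS2, differed by at least 1.5-fold in either direction, where 36.1% of all loci did. The medians were -0.026 for the cytosolic and -0.025 for the mitochondrial genes, with 8 and 7 above 0, against 0.032 and 52% above for all loci. Among the 4566 loci reaching 20 FPKM, 38.3% differed by 1.5-fold. No member was 1.5-fold lower in the deposited values, where 17.3% of loci were. With libraries of the same sum 4 were, FARSB (-0.75), HARS2 (-0.75), SARS2 (-0.70) and FARS2 (-0.67), where 23.9% of loci were, and the cytosolic median became -0.26, with all loci at -0.16. With a pseudocount of 0.1 SARS2 (-0.60) and FARS2 (-0.59) were, and with quantile normalization FARSB (-0.68) and HARS2 (-0.66).

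Below these limits OIS had its own order of members. CARS, the cysteinyl enzyme, stood at 38.6, 57.8, 31.3 and 44.8 FPKM in growing, OIS, day 3 and day 13 cells, highest in OIS by 1.49-fold over growing cells. FARSA (0.30) and WARS (0.29) were higher by less, and FARSB (-0.52) and AARS (-0.35) lower. Of the mitochondrial enzymes, HARS2 (-0.52), SARS2 (-0.51) and FARS2 (-0.49) were lower, and EARS2 (0.41), for glutamate, was higher. WARS had 48.2, 59.3, 36.8 and 38.1 FPKM, with OIS at the top. Against day 13 of H3.3cs1 it was 1.54-fold higher in OIS, EARS2 1.55-fold higher and SARS2 1.51-fold lower, where 23% of all loci were at least 1.5-fold higher and 17.8% lower. With libraries of the same sum WARS (0.38) and EARS2 (0.41) were no longer past 1.5-fold, nor were they with centred (0.53 and 0.54) or quantile-normalized values (0.49 and 0.46). SARS2 remained past it under all 9 alternatives, and HARS2 passed it, lower, under those 3 scalings.

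MARS2, the mitochondrial methionyl enzyme, was the member that rose. Its values were 3.06 FPKM in growing cells, 15.4 in OIS, 2.56 at day 3 and 2.97 at day 13. The OIS library stands alone at the high end and the other libraries lie close together. The difference was 2.01 on the log2 scale (4.04-fold) against growing cells and 2.04 (4.12-fold) against day 13 of H3.3cs1, where 11.2% of all loci were at least 2-fold higher. Of all compared loci, 9.13% rose and 8.17% fell by 2-fold or more in OIS, and 314 loci (2.58%) were higher there by at least as much as MARS2. Under the 9 planned processing alternatives the OIS difference ran from 1.79 to 2.30. In 3 libraries between 20.2% and 25.4% of the compared loci lay below it, and in OIS 62.8% did.

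The promoter window of MARS2 on GRCh38.p14 holds the E-box CACGTG, shown here because MARS2 is the one gene of the family past 2-fold.
MARS2, chr2:197705336-197705368, plus strand: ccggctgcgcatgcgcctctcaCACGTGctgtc
Its neighbour in RefSeq gene order, RFTN2, was at 0.525, 3.58, 0.197 and 0.228 FPKM in growing, OIS, day 3 and day 13 cells, also with OIS alone at the top. On the other side BOLL was at or near 0 in all libraries, and the joined locus of HSPE1-MOB4 and MOB4, further on, had 145, 142, 147 and 84.7 FPKM. RFTN2 was looked up after the MARS2 values had been seen, and whether reads of either gene enter the value of the other was not tested. MTFMT, which formylates the methionine that mitochondrial methionyl-tRNA carries when a protein is started, stood at 3.91, 7.49, 4.15 and 3.39 FPKM, highest in OIS by 0.79. The cytosolic partner MARS was level between growing cells and OIS.

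Within a library, the ratio of a cytosolic enzyme to its mitochondrial counterpart does not depend on scaling the whole library by a factor. There are 15 such pairs, counting EPRS with EARS2 and FARSA with FARS2. At day 3 the ratio was below that of growing cells in 14 of 15 pairs, with a median change of -0.46 in the log2 ratio. The exception was NARS to NARS2, at 12.5 in growing cells and 15.04 at day 3. From day 3 to day 13 the ratio was higher in 14 of 15 pairs, with a median change of 0.49, and RARS to RARS2 went from 3.303 to 2.24. In OIS 9 pairs were below growing cells and 6 above, with a median of -0.087. The comparisons with day 3 share its library, so the lower and the later higher ratios are not separate observations. In growing cells the cytosolic gene was the higher of every pair, and abundant loci leaned lower at day 3 too. Loci that reach 20 FPKM had a median of -0.13 with 65.5% below growing cells, beside -0.025 and 52.7% for all loci. With quantile normalization the gap between the cytosolic and mitochondrial medians was -0.21, and 0.074 from day 3 to day 13. What part of the ratio changes goes with abundance was not tested, and no share over other pairs was computed.

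**Figure D3:**
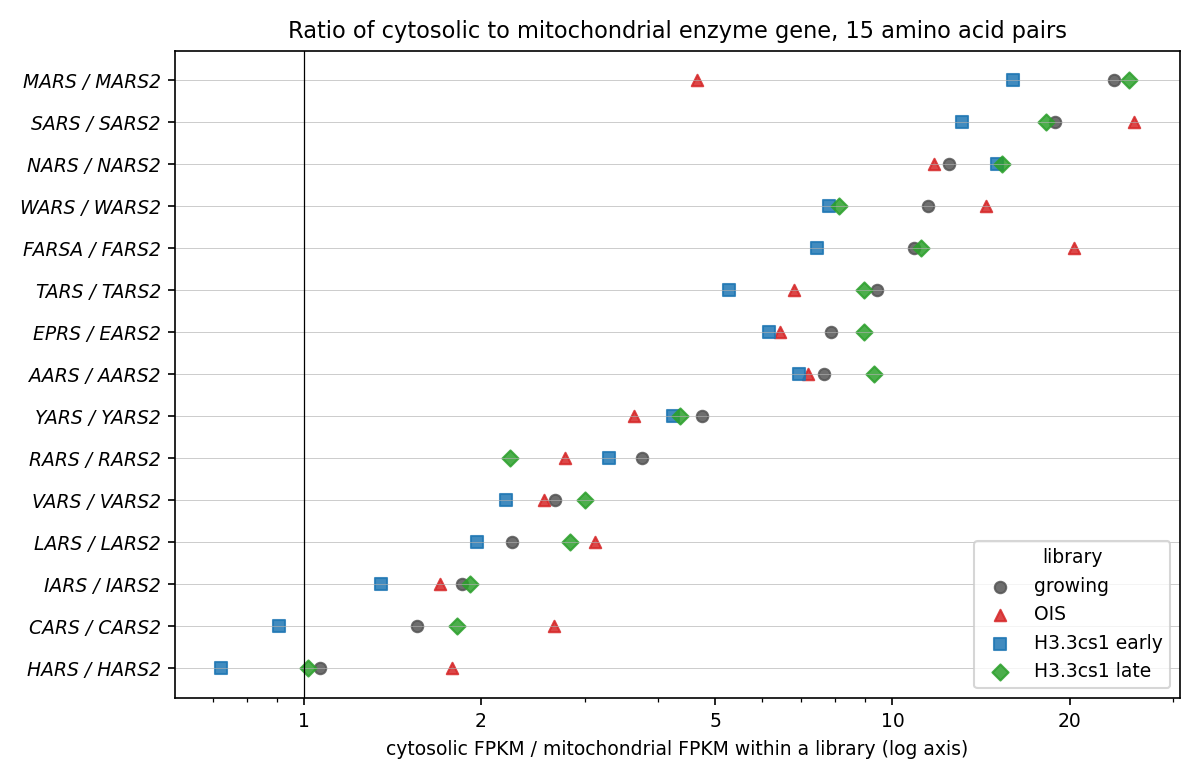
Ratio of the cytosolic to the mitochondrial FPKM for 15 enzyme pairs in each library, on a log axis, 1 row per pair and 1 point per library. The day 3 points of H3.3cs1 lie left of the growing points except for NARS to NARS2, and for MARS to MARS2 the OIS point lies at 4.66 and the growing one at 23.8.

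The pairs differ in how strongly the cytosolic gene exceeds its partner. TARS to TARS2 was 9.43 in growing cells, 6.80 in OIS, 5.28 at day 3 and 8.95 at day 13, lowest at day 3. CARS to CARS2 was 1.56, 2.66, 0.907 and 1.82 in the same order, so that at day 3 the mitochondrial transcript was the higher. CARS2 itself, at 24.8, 21.8, 34.5 and 24.6 FPKM, was highest at day 3 (0.46 above growing cells), and contributes to that low ratio. In OIS the ratio of FARSA to FARS2 was 20.4 against 10.9 in growing cells, and that of SARS to SARS2 was 25.7 against 18.9.

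HARS and HARS2 are a pair of a particular kind, since the genes stand head to head and share their promoter. The sequence between their starts on GRCh38.p14 is 84 bases long and is printed on the plus strand because it lies upstream of both genes.
HARS and HARS2, chr5:140691371-140691454: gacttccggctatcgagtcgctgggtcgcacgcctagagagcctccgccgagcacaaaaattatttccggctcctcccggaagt
HARS was at 51.1, 59.6, 39.9 and 48.9 FPKM in growing, OIS, day 3 and day 13 cells, and HARS2 at 48.1, 33.3, 55.2 and 48.2 FPKM. The genes were level in growing cells and at day 13, with ratios of 1.06 and 1.02, and the ratio was 0.724 at day 3 and 1.79 in OIS. As deposited, they differed from growing cells in opposite directions, HARS by -0.35 at day 3 and 0.22 in OIS, HARS2 by 0.20 and -0.52. Scaling a library by a factor leaves the ratio as it is but can change the direction of a gene's own difference. Both loci are joined with another gene, DND1 for HARS and ZMAT2 for HARS2, and the share of those neighbours in the values was not tested.

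The scaffold proteins of the multi-synthetase complex followed their enzymes only in part. AIMP1 stood at 17.3, 13.1, 15.1 and 17.1 FPKM in growing, OIS, day 3 and day 13 cells. AIMP2 stood at 15.8, 10.5, 11.3 and 15.4 FPKM, with OIS and day 3 low. EEF1E1 lies in a locus joined with TXNDC5 and BLOC1S5, at 188, 199, 167 and 186 FPKM, so its own level cannot be read from it. All 3 loci were below growing cells at day 3 (median -0.18) and near them at day 13 (-0.020), though with libraries of the same sum the day 3 median was 0.058. AIMP1 (-0.38) and AIMP2 (-0.54) were lower in OIS, where the 8 enzymes of the complex had a median of 0.021, with 4 above and 4 below. With libraries of the same sum the OIS medians were -0.60 for the 3 scaffold loci and -0.26 for all cytosolic enzymes. None of the 3 loci differed by 2-fold.

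Genes of the amino acid response, which includes the enzymes that make serine, asparagine and proline and the transporters that import amino acids, showed the same day 3 position to a larger degree. The list has 29 genes apart from the synthetases. At day 3 its median against growing cells was -0.71, with 24 of 29 below, 17 at least 1.5-fold lower, where 10.5% of all loci and 15.1% of those that reach 20 FPKM were. Of the 29, 6 fell and 1 rose by 2-fold or more, where 3.96% of all loci fell and 1.4% rose. From day 3 to day 13 the median was 0.58, with 25 above and 5 at least 2-fold higher, where 5.47% of all loci were. With libraries of the same sum these medians were -0.47 and 0.35, and with quantile normalization -0.58 and 0.37, so the direction held under each. ATF4 itself, named after its values were seen, stood at 197 FPKM in growing, 220 in OIS, 121 at day 3 and 195 at day 13, lowest at day 3 by 0.70. ATF4 is controlled mainly through its translation, which transcript levels do not show.

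In OIS the same list spread widely in both directions, unlike the synthetases. It had a median of -0.25, with 5 genes that rose and 9 that fell by 2-fold or more, while no cytosolic synthetase did either (9.13% of all loci rose and 8.17% fell). PSAT1, an enzyme of serine synthesis, was at 53.3, 7.06, 22.8 and 46.3 FPKM in growing, OIS, day 3 and day 13 cells, and fell 6.74-fold in OIS. TRIB3, a pseudokinase induced by ATF4 and CHOP, was at 10.4, 68.0, 7.79 and 8.88 FPKM and rose 6.06-fold there. CEBPB, a bZIP factor that binds such sites, was at 14.9, 76.1, 21.6 and 18.8 FPKM, and NUPR1, a stress-induced chromatin protein, at 32.5, 4.98, 68.4 and 71.7 FPKM. These 4 genes were the list's largest by a set rule. Of the genes picked after their values were seen, ASNS (asparagine synthetase) was at 31.1, 7.74, 11.5 and 26.1 FPKM, PHGDH (the entry to serine synthesis) at 54.2, 11.6, 17.97 and 22.4 FPKM, and SLC7A5 (a transporter of large neutral amino acids) at 93.8, 24.3, 23.5 and 66.6 FPKM. In all 3, OIS and day 3 lie below growing cells and day 13 lies between. In the promoter windows of the list TTGCATCA occurred in 1 of 23 genes, CHAC1, against the 6 of 16 cytosolic synthetases. The looser TTNCATCA occurred in 5 of 23, ATF3, CHAC1, ASNS, SLC3A2 and SLC7A1. That compares with 7 of 16 cytosolic synthetases and 4.46% of all genes.

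**Figure D4:**
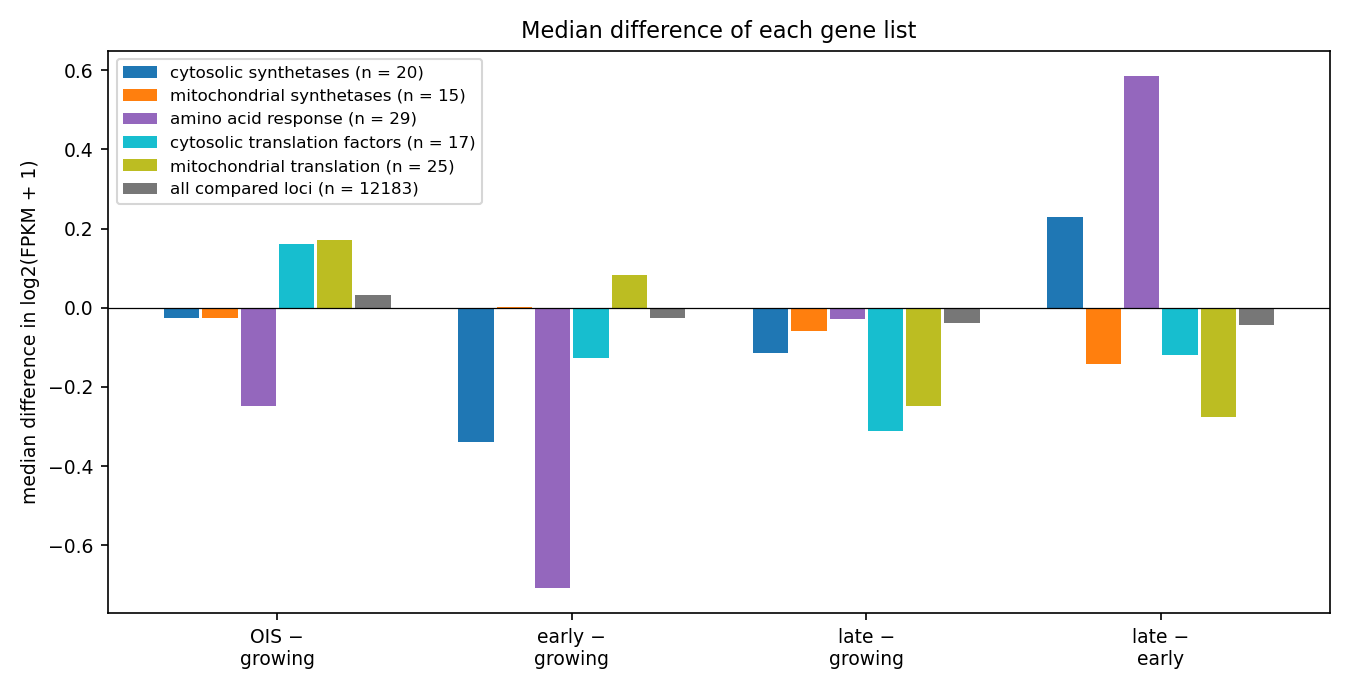
Median difference in log2(FPKM + 1) for the 2 sets of synthetases, the amino acid response, the cytosolic translation factors and mitochondrial translation, with the median of all compared loci. The comparisons drawn are those with growing cells and that of day 13 with day 3. The amino acid response list lies lowest at day 3 (-0.71), followed by the cytosolic synthetases (-0.34), and both lie above 0 from day 3 to day 13.

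Translation factors and the genes of mitochondrial translation were set beside the enzymes. The 17 cytosolic translation factors had medians of 0.16 in OIS, -0.13 at day 3 and -0.31 at day 13 against growing cells. The OIS and day 3 values change sign with libraries of the same sum, to -0.073 and 0.13, and the day 13 value was -0.30, with 16 of 17 below. The initiation factors EIF5 (-0.63) and EIF3A (-0.59), the helicase EIF4A1 (-0.56, in a joined locus) and the release factor GSPT1 (-0.56) were the list's widest, all at day 13. The 25 genes of mitochondrial translation, which use the products of the mitochondrial synthetases, had medians of 0.17, 0.082 and -0.25, and the OIS value changes sign to -0.052 with the same sum. Its widest beside MTFMT were the ribosomal protein genes MRPL3 (-0.81 at day 13), MRPL11 (-0.70 in OIS) and MRPL15 (-0.66 at day 13). At day 13 the medians of both lists lay further below growing cells than those of the synthetases of their compartment (-0.12 and -0.060).

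Interferon-responsive genes were examined beside WARS. The 8 genes had a median of 0.37 in OIS, 0.31 at day 3 and 0.14 at day 13 against growing cells, with 5, 6 and 5 above. In OIS CXCL10, a chemokine induced by interferon gamma, was at 39.0 FPKM against 0.054 in growing cells, IRF1, a transcription factor of that response, at 10.6 against 4.48, and ISG15, a ubiquitin-like protein, at 65.6 against 25.9. GBP1, a guanylate-binding protein of the same response, was at 1.27 in OIS against 10.8 in growing cells. WARS, at 59.3 against 48.2 FPKM, differed by less than any of these 4 genes. At day 3, 3 of the 8 rose by 2-fold or more, where 1.4% of all loci did. They were ISG15, at 63.7 FPKM and so near its OIS level, and IFIT1 and MX1, antiviral proteins named after their values were seen, at 4.67 against 0.703 and 2.79 against 0.158 FPKM in growing cells. WARS was lower than in growing cells at day 3 (-0.38).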

How the data were processed

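The authors deposited FPKM values, 1 per locus and library, per the labels of poly(A) RNA-seq libraries. Tools named in the submitters' processing notes are Cufflinks 2.1.1, TopHat2 2.0.3 and Bowtie2, with hg19 as the build, and neither role nor order is stated. How strand, multiply mapped reads and scaling between libraries were treated is not given in the sources used here. In every table the header line sits 1 place to the left of its sample, so samples were taken from the deposit's file records. HRAS fits them for OIS and does not tell the other libraries apart. Read counts were not used here, and precision could not be computed.

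Unnamed loci (2310) were left out. A symbol on several lines, or in a joined locus, took the sum of those lines, and loci with at least 1 FPKM in at least 1 library were compared as log2(FPKM + 1), a scale that understates changes of low genes. Differences, medians and counts past 2-fold and 1.5-fold were computed in Python 3.11.15 with pandas 2.3.3, NumPy 2.4.6 and matplotlib 3.10.9. The 1.5-fold rule was also run on simulated data in which the planted changes lay well past that limit. Such a run cannot show how medians or smaller differences behave. All 35 members were named by rule. Of each other list the rule named up to 4 genes with the largest difference from growing cells and at least 5 FPKM in the higher library, and further genes are marked where they were named later. Members and lists were chosen with earlier results of these data known. Promoter sequences are RefSeq's, on GRCh38.p14. The alternatives were another pseudocount, 2 other filters, 3 scalings, the highest line per symbol, and leaving out joined loci or values of 0.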

Additional observations from a re-analysis of the deposited data

How the results depend on the processing

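Results were recomputed under 9 alternatives, and a median was taken to hold when it moved by less than 0.1 on the log2 scale. Scaling moved the medians most. With libraries of the same named sum, the medians of the cytosolic and mitochondrial enzymes were -0.26 and -0.21 for OIS against growing cells, -0.088 and 0.23 for day 3 against growing cells, -0.017 (sign reversed) and -0.35 for day 13 against day 3, and -0.064 and -0.023 (both reversed) for OIS against day 13. All loci shifted too, to -0.16, 0.19, -0.26 and -0.12 in the same order. With quantile normalization the cytosolic medians were -0.17, -0.18, 0.040 and 0.020 in that order, the mitochondrial medians -0.033 for day 13 against day 3 and 0.045 for OIS against day 13, and the gaps between cytosolic and mitochondrial medians -0.13 for OIS against growing cells, -0.21 for day 3 against growing cells and 0.074 for day 13 against day 3. MARS2 was past 2-fold in OIS under all 9. Of 1550 values of single members, 258 moved by 0.1 or more. The comparison with loci of at least 20 FPKM was added after seeing the data.

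No paired analysis was possible because each group has 1 library, and for the same reason no library was left out. Each value comes from 1 library, its scaling is not stated, and no interval is given for low values such as that of MARS2, since the depth is known only roughly.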

Other observations

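WARS2, whose summed level hardly moved, is listed on 2 lines that moved apart. One line was at 1.55, 1.27, 1.46 and 2.74 FPKM in growing, OIS, day 3 and day 13 cells, and the other at 2.65, 2.84, 3.25 and 1.95 FPKM. At day 13 their order is the opposite of that in the other 3 libraries. The tables give no coordinates, so which part of the gene each line covers is not known here.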
